A study of Mus musculus with 12 samples.

Results

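The 10 genes described here, of the neutrophil granules and cytosol, were followed through mouse spleen in septic peritonitis: Elane, Mpo, Prtn3 and Ctsg of the primary granule, Ltf, Camp, Ngp and Mmp8 of the granules formed later, and the calgranulins S100a8 and S100a9. They were chosen by symbol, as the probe sets annotated with 1 of these names, and each gene had a single probe set, which gave 10 of the 19938 genes measured. The values are log2 expression values of Affymetrix arrays hybridised with RNA from whole spleen, 12 arrays in all. All mice were C57BL/6. The labels give 3 groups of 4 arrays: TLR-deficient mice made septic, wildtype mice made septic, and untreated wildtype mice. Sepsis came from colon ascendens stent peritonitis (CASP), in which a stent sutured into the ascending colon makes gut content leak into the abdomen. The titles of the TLR-deficient group carry the word Trifxmyd and those of the untreated group carry 0h. The labels used here name no allele, sex, age or sampling time after surgery, and there is no untreated TLR-deficient group, so the genotype was compared only under sepsis. The study set the groups side by side to find genes induced by septic peritonitis and those whose induction needs Toll-like receptors, the sensors of microbial products.

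Neutrophils fill their granules in sequence as they mature. Promyelocytes transcribe the primary granule genes, later stages transcribe the genes of specific and gelatinase granules, and the calgranulins make up much of the cytosolic protein of maturing and mature cells, with monocytes also producing them. Circulating neutrophils have largely stopped transcribing primary granule genes. The mouse spleen holds mature neutrophils and also makes granulocytes, a site of extramedullary haematopoiesis that can expand during infection. In whole-tissue RNA, fewer cells of a type and less RNA per cell cannot be told apart.

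The promoters of the 4 primary granule genes and of both calgranulins are shown because these sets of genes ranked the arrays differently. Each sequence is the 250 bases before the gene's start in RefSeq on mouse GRCm38.p6, read 5′ to 3′ on the gene's strand. Capitals mark letters searched for: AGGAAGT for the factor PU.1, TTGCNNAA for C/EBP factors and TAACNG for Myb on both strands, and TATAAA for a TATA box on the gene strand alone. No match overlapped another in these 10 promoters.
Elane, chr10:79886062-79886311, plus strand: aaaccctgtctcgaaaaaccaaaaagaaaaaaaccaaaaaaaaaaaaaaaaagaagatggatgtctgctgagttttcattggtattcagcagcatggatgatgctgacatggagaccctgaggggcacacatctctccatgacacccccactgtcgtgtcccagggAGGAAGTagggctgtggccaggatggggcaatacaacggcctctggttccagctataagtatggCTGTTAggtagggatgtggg
Prtn3, chr10:79879417-79879666, plus strand: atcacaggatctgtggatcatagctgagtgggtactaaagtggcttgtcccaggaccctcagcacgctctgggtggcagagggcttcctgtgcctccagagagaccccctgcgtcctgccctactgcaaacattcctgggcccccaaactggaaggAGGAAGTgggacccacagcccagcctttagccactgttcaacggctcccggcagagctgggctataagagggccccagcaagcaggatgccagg
Mpo, chr11:87793534-87793783, plus strand: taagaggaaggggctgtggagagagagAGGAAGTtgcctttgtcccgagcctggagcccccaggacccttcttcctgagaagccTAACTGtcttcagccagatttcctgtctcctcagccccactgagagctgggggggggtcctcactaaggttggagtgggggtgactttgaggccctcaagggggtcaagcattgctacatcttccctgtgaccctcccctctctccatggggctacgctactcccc
Ctsg, chr14:56102575-56102824, minus strand: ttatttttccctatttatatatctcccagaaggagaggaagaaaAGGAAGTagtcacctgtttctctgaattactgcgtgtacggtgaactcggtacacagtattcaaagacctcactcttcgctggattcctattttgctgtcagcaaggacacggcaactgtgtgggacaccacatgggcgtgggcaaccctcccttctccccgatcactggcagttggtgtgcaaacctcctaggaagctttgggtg
S100a8, chr3:90668821-90669070, plus strand: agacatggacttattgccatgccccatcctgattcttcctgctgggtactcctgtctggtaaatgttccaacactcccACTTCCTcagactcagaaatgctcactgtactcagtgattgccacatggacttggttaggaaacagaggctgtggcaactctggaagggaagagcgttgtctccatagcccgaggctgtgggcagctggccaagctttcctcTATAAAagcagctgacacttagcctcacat
S100a9, chr3:90695722-90695971, minus strand: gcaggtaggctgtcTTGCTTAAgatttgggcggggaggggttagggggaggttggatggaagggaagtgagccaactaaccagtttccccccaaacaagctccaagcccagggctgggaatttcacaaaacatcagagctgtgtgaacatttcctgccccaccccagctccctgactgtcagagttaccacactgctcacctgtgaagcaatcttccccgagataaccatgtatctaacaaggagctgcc

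The letters AGGAAGT lay on the gene strand of all 4 primary granule promoters, beginning 84 bases before the start of Elane, 94 before Prtn3, 206 before Ctsg and 223 before Mpo. Among the other members, Mmp8 and S100a8 held them on the opposite strand, at 221 and 172 bases before the start, so 6 of 10 members had a match, against 7.69% of 32851 RefSeq promoters. The C/EBP letters were in 4 of 10 (Ltf, Ngp, Mmp8 and S100a9) against 9.56% of promoters, and the Myb letters in 3 of 10 (Elane, Mpo and Mmp8) against 19.8%. S100a8 alone had TATAAA, 30 bases before its start, a hexamer held by 7.59% of promoters. Prtn3 and Elane are direct neighbours among coding genes, as are S100a8 and S100a9, and Ctsg lies between Mcpt8 and Gzme, 2 further serine protease genes. A match of letters is a description of the sequence and not a binding site.

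Some arrays stood apart from their labels, which touches every comparison that follows. Arrays are named here by the number in their titles, M5 to M8 for septic TLR-deficient replicates 1 to 4, M9 to M12 for septic wildtype and M13 to M16 for untreated wildtype replicates 1 to 4. M10 (septic wildtype replicate 2) had correlations over all genes of only 0.765 to 0.809 with other arrays, whereas the other 11 arrays correlated among themselves at 0.956 to 0.991. Its values were also compressed, with an SD of 1.21 log2 units over genes against 1.91 to 2.07. Each array's nearest neighbour carried the same label for 5 of 12 arrays, whereas it fell in the same block of title numbers for 12 of 12, the blocks being M5 to M7 with M16, then M8 to M11, then M12 to M15. M8 is labelled septic TLR-deficient, M12 septic wildtype and M16 untreated wildtype, and each lies in a block made up otherwise of another label. Xist, the RNA of the inactive X chromosome, read 3.73 to 4.33 on M12 to M15 and 8.94 to 10.94 on the other 8 arrays, and the Y-linked Eif2s3y read 7.21 to 7.95 against 2.48 to 4.50. By these sex-linked genes M12 to M15 read as male and the other 8 arrays as female, so 3 of 4 untreated, 1 of 4 septic wildtype and 0 of 4 septic TLR-deficient arrays read as male, and sex and label cannot be fully told apart. Whether M8, M12 and M16 carry the labels of the spleens hybridised to them cannot be told from these data. The labels were kept as deposited, and every difference between groups would change if they were exchanged. The blocks are not groups of the study, so values by block are given without a test. Results are also given for replicates 1 to 3 alone, which leaves out M8, M12 and M16. Each label is then 1 block, so label and block cannot be told apart. The untreated arrays then all read as male and the septic arrays as female. M8, M12 and M16 stood apart from their labels in these same values, so leaving them out can narrow the spread inside labels. Myd88 and Ticam1, the genes of the adaptors MyD88 and TRIF that the titles bring to mind, read 8.62 to 9.64 and 5.80 to 5.93 in the TLR-deficient group, 6.48 to 9.20 and 5.64 to 6.22 in septic wildtype and 8.87 to 9.75 and 5.76 to 6.57 in untreated spleens, which checks no label since the alleles and the probes' positions are not stated. Spleen genes were present throughout, with the B-cell gene Cd79a at 7.78 to 11.12, the T-cell gene Cd3e at 6.37 to 9.33 and the red pulp macrophage factor Spic at 7.80 to 10.11.

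All 10 genes varied widely over the 12 arrays. Their ranges from lowest to highest array lay between 2.19 (Ltf) and 3.71 log2 units (Mmp8), against a median range of 1.41 over all genes, and fell at percentiles 82.8 to 98.6 of the ranges of all genes.

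**Figure D1:**
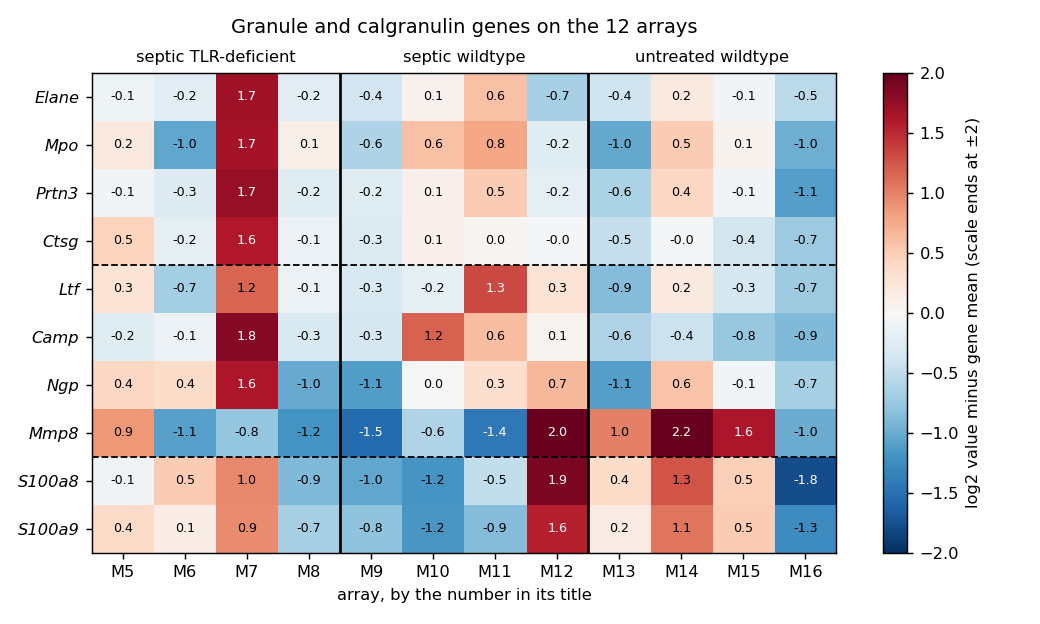
Log2 value of each gene minus its own mean over 12 arrays, for 10 genes (rows, with dashed lines between primary granule, later granule and calgranulin genes) and 12 arrays (columns in order of title number, with solid lines between labelled groups). M7 is high for the 4 primary granule genes, which lie 1.6 to 1.7 above their means there, whereas Mmp8 and the calgranulins are high on M12 and M14.

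The primary granule genes had their highest value on the same array, M7 (septic TLR-deficient replicate 3), and their groups overlapped. Elane, neutrophil elastase, read 5.74, 5.62, 7.54 and 5.61 in septic TLR-deficient replicates 1 to 4, 5.46, 5.92, 6.42 and 5.16 in septic wildtype replicates, and 5.44, 6.03, 5.77 and 5.30 in untreated replicates. Its group means were 6.13 ± 0.94, 5.74 ± 0.55 and 5.63 ± 0.33 (SD, n = 4 each). M7 alone lay above 6.42. Mpo, myeloperoxidase, which makes hypochlorous acid, read 6.25, 5.01, 7.71 and 6.17, then 5.43, 6.63, 6.83 and 5.80, then 5.03, 6.55, 6.12 and 5.07 in the same order, with means of 6.28 ± 1.11, 6.17 ± 0.67 and 5.69 ± 0.76. Septic TLR-deficient spleens held both its lowest and its highest value. Prtn3, proteinase 3, a serine protease, read 5.65, 5.46, 7.46 and 5.46 in septic TLR-deficient spleens, 5.48, 5.82, 6.23 and 5.54 in septic wildtype spleens, and 5.08, 6.14, 5.66 and 4.62 in untreated spleens (means 6.01 ± 0.97, 5.76 ± 0.34 and 5.38 ± 0.67). Its highest array was again M7 and its lowest M16. Ctsg, cathepsin G, read 4.99, 4.33, 6.13 and 4.43, then 4.27, 4.64, 4.58 and 4.52, then 4.08, 4.51, 4.17 and 3.81 (means 4.97 ± 0.83, 4.50 ± 0.16 and 4.14 ± 0.29). For all 4 genes the order of the group means was septic TLR-deficient, septic wildtype, untreated wildtype, with each step smaller than the larger of the 2 SDs beside it except from septic wildtype to untreated for Ctsg. M7 also had the highest mean over 10 erythroid marker genes, 9.33 against 7.16 to 9.07 on the other arrays, and the part of that in the granule genes' values was not tested.

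**Figure D2:**
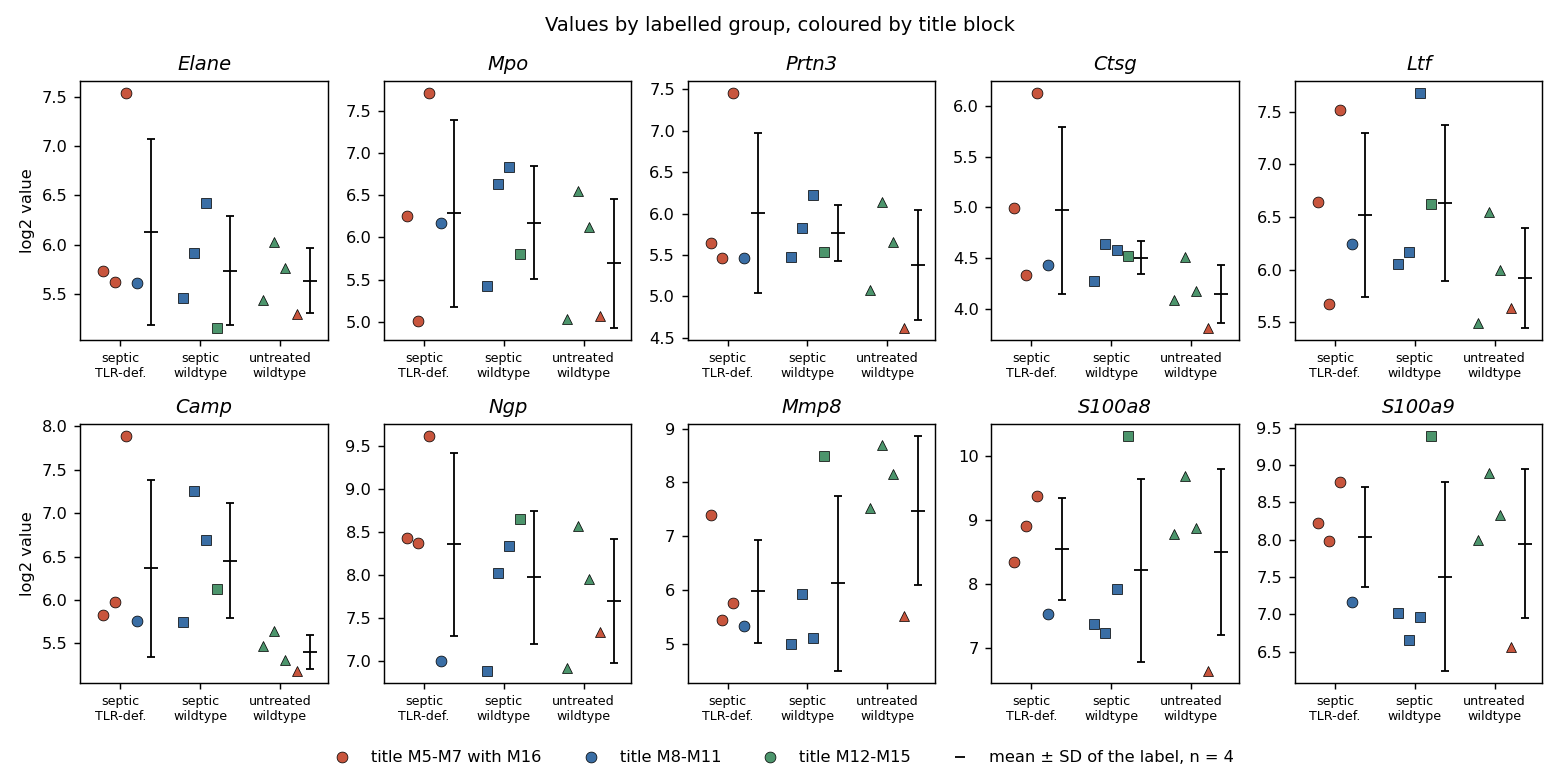
Log2 value of each gene by labelled group, 1 panel per gene with its own y axis; points are arrays, colours are blocks of title numbers, and bars are the mean ± SD of the 4 arrays of a label. Groups overlap in every panel except that of Camp, where the 4 untreated arrays (5.18 to 5.64) lie below the 8 septic arrays (5.74 to 7.89).

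Of the later granule genes, Ltf, Camp and Ngp were also high on M7, although Ltf read higher still on M11, an array of septic wildtype spleen. Ltf, the iron-binding lactoferrin, read 6.64, 5.67, 7.52 and 6.24 in septic TLR-deficient replicates 1 to 4, 6.05, 6.17, 7.68 and 6.62 in septic wildtype replicates, and 5.49, 6.55, 6.00 and 5.64 in untreated replicates. Its highest array was M11 (septic wildtype replicate 3), with M7 next, and the means were 6.52 ± 0.78, 6.63 ± 0.74 and 5.92 ± 0.47 (SD, n = 4 each). Camp, the antimicrobial cathelicidin, read 5.83, 5.97, 7.89 and 5.76, then 5.74, 7.25, 6.69 and 6.13, then 5.47, 5.64, 5.31 and 5.18, with means of 6.36 ± 1.02, 6.45 ± 0.66 and 5.40 ± 0.20. It was the 1 member whose untreated values lay below every septic value. The second highest Camp value, 7.25, came from M10, the compressed array, and the septic wildtype mean without it was 6.19 ± 0.48 (n = 3). Ngp, the neutrophilic granule protein, read 8.43, 8.37, 9.62 and 7.0, then 6.88, 8.02, 8.34 and 8.65, then 6.91, 8.57, 7.95 and 7.34 (means 8.35 ± 1.07, 7.97 ± 0.77 and 7.69 ± 0.73). Each group of Ngp values held an array at or below 7.34 and another at 8.57 or above.

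Mmp8, neutrophil collagenase, a matrix metalloproteinase stored in specific granules, did not share this pattern. It read 7.39, 5.44, 5.75 and 5.33 in septic TLR-deficient replicates 1 to 4, 4.99, 5.92, 5.10 and 8.49 in septic wildtype replicates, and 7.53, 8.70, 8.15 and 5.52 in untreated replicates. Its values fell into separate sets, 5 arrays at 7.39 or above and 7 at 5.92 or below, and each labelled group held arrays of both sets. By title block, M12 to M15 read 7.53 to 8.70, M8 to M11 read 4.99 to 5.92, and M5 to M7 with M16 read 5.44 to 7.39, so that the first block lay above both others. That block is also the set of arrays that read as male, and the part of sex was not tested. On M7, where the primary granule genes peaked, Mmp8 was at 5.75, below its mean.

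The calgranulins were highest on M12 and M14 and lowest on M16. S100a8, a subunit of the calcium- and zinc-binding heterodimer calprotectin, read 8.34, 8.91, 9.38 and 7.53 in septic TLR-deficient replicates 1 to 4, 7.38, 7.23, 7.92 and 10.31 in septic wildtype replicates, and 8.78, 9.68, 8.88 and 6.64 in untreated replicates. Its group means were 8.54 ± 0.80, 8.21 ± 1.43 and 8.5 ± 1.3 (SD, n = 4 each), closer to each other than any SD. S100a9, the other subunit, read 8.22, 7.98, 8.78 and 7.16, then 7.02, 6.66, 6.96 and 9.39, then 8.0, 8.90, 8.33 and 6.57 (means 8.04 ± 0.67, 7.51 ± 1.27 and 7.95 ± 0.99). In the septic wildtype group replicate 4 (M12) was far above replicates 1 to 3, and in the untreated group replicate 4 (M16) was far below them. By title block the values were tighter: S100a9 read 8.0 to 9.39 on M12 to M15 and 6.66 to 7.16 on M8 to M11, and S100a8 read 8.78 to 10.31 and 7.23 to 7.92. The block of M5 to M7 with M16 was wide for both genes, at 6.57 to 8.78 for S100a9 and 6.64 to 9.38 for S100a8, since M16 was the lowest array. Blocks of the 4 primary granule genes all overlapped, for example 5.30 to 7.54, 5.46 to 6.42 and 5.16 to 6.03 for Elane.

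The primary granule genes and the calgranulins thus ranked the arrays differently. With each gene centred on its own mean and averaged within a role, the primary granule genes stood at 1.68 on M7 and the calgranulins at 0.96, whereas on M12 the primary granule genes stood at -0.28 and the calgranulins at 1.73. On the 4 arrays M8 to M11 the primary granule value exceeded that of the calgranulins, by 0.55 to 1.40, and on M12 to M15 it was below (differences of -0.59 to -2.01). Both were at their lowest on M16, at -0.83 and -1.52.

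**Figure D3:**
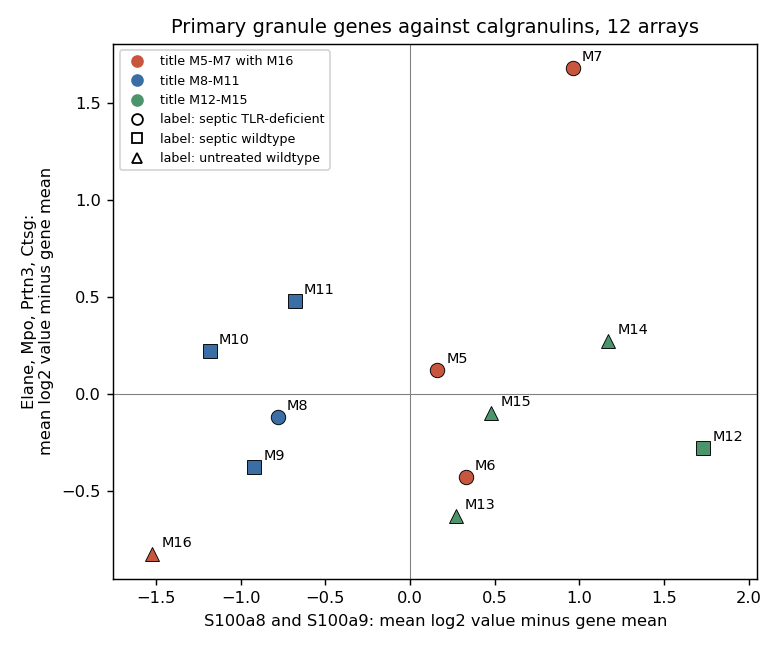
Mean of log2 value minus gene mean over the 4 primary granule genes (y axis) against the same over S100a8 and S100a9 (x axis), 1 point per array, coloured by block of title numbers and shaped by label. M7 is highest on the y axis (1.68) and M12 on the x axis (1.73), and M8 to M11 all lie left of 0 while M12 to M15 lie right of it.

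Pearson correlations between members were computed over the 12 arrays for 36 pairs, leaving out Mmp8 because of its separate sets of values, with p-values from 100000 permutations adjusted over the 36 pairs. S100a8 and S100a9 followed each other most closely, at r = 0.97 and Spearman's rho = 0.93 (permutation p = 1e-05 for r, the smallest these permutations can give, adjusted 0.00036; p = 8e-05 for rho, adjusted 0.00234), with r = 0.95 without the 2 arrays farthest from the median of S100a8. Elane and its neighbour Prtn3 reached r = 0.93 and rho = 0.87 (permutation p = 0.0001, adjusted 0.0012, and p = 0.00045, adjusted 0.0045), with r = 0.74 without the 2 farthest arrays. The 6 pairs of primary granule genes had r between 0.81 and 0.93, and 0.46 to 0.90 without the 2 farthest arrays, so part of the likeness rested on those arrays. The 12 pairs of a primary granule gene with Ltf, Camp or Ngp lay at 0.67 to 0.85 (0.28 to 0.79 without them), and the 3 pairs among Ltf, Camp and Ngp at 0.64 to 0.69. A primary granule gene and a calgranulin gave r of only 0.17 to 0.42 in 8 pairs, none past an adjusted p of 0.05 for r or rho, for example 0.19 for Elane with S100a8 (rho = 0.16, permutation p = 0.567 and 0.621, adjusted 0.619 and 0.699). Ngp lay between, at r = 0.62 with S100a8 (rho = 0.71, permutation p = 0.0334 and 0.0132, adjusted 0.0523 and 0.0395). The same pairs were then computed with each value centred on the mean of its title block, or of its label, with exact p-values over the 13824 arrangements that permute arrays only inside blocks or labels, a choice made after seeing the data. Within blocks the 6 primary granule pairs stood at r = 0.84 to 0.95 and the calgranulin pair at 0.94, and within labels at 0.84 to 0.94 and 0.97, all with an adjusted exact p of r under 0.05. The 12 pairs of a primary granule gene with Ltf, Camp or Ngp stood at 0.73 to 0.86 within blocks, 11 of 12 past that threshold, and at 0.64 to 0.88 within labels, 8 of 12 past it. The 8 pairs of a primary granule gene with a calgranulin stood at 0.48 to 0.80 within blocks, where the lowest adjusted exact p was 0.0505, and stood at 0.15 to 0.47 within labels. By r alone, these roles were less far apart within blocks than over all arrays or within labels. M7 and M16 share a block and were high and low for both roles, and their part in r was not tested. Rank correlations of those 8 pairs were 0.07 to 0.53 inside blocks and 0.33 to 0.47 inside labels. Inside blocks they were 0.53 to 0.87 for the primary granule pairs (3 of 6 past the threshold) and 0.73 for the calgranulin pair (exact p = 0.0297, adjusted 0.0821).

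Septic TLR-deficient and septic wildtype spleens addressed the part of the response that needs Toll-like receptors. No member was called: limma, adjusted by Benjamini-Hochberg over all genes at 0.05, called 0 of 10 members and 0% of all genes. At an unadjusted p under 0.05 it counted 0 of 10 members, against 6.65% of all genes, and no member's groups failed to overlap, against 3.8% of all genes in either direction. Of the 10 members 7 had a higher mean in TLR-deficient spleens, against 43.9% of all genes, and their median difference was 0.29 against -0.06 over all genes. Among the 14953 genes with a mean level at or above percentile 25, all 10 members included, 56.6% were higher (median 0.07). S100a9 differed by 0.53 (SE 0.61, adjusted p = 0.657) and Ctsg by 0.47 (SE 0.33, adjusted p = 0.59), the largest 2 of the 10. Single arrays moved both: leaving out 1 array at a time gave 0.24 (without M10) to 1.16 (without M12) for S100a9 and 0.08 (without M7) to 0.68 for Ctsg. The median rested on M7: without that array it was -0.08, with 3 members higher and 7 lower. It was 0.04 without septic wildtype replicate 1, and 0.01 after a further quantile normalization, which left 5 higher and 5 lower. With replicates 1 to 3 alone, 9 of 10 members were higher, and 141 genes (0.707%) but 0 members were called, with S100a9 at 1.45 (limma adjusted p = 0.0661). With M10 left out as well, a choice made after seeing the data, S100a9 was called (1.34, limma adjusted p = 0.029), as 1 of 1002 genes.

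Septic and untreated wildtype spleens addressed the response to peritonitis itself. Camp was higher in sepsis by 1.05 (SE 0.44) and Ltf by 0.71 (SE 0.42), whereas Mmp8 was lower by 1.35 (a difference of -1.35, SE 0.81), each with a limma adjusted p of 0.439. The call count was 0 of 10 members and 0% of all genes. At an unadjusted limma p under 0.05 there was 1 member of 10, Camp, against 8.81% of all genes. Camp also had untreated values below all septic wildtype values, which 3.68% of all genes had. Of the 10 members 7 had a higher mean in sepsis (55.1% of all genes did), all 4 primary granule genes among them, and S100a8, S100a9 and Mmp8 were the 3 with a lower mean. The median difference was 0.32, against 0.07 over all genes, and -0.10 with array weights, where 4 members were higher and 6 lower. Among the 14953 genes at or above percentile 25, 40.8% were higher (median -0.12). The calgranulin values depended on single arrays: S100a8 differed by -0.29 (SE 0.72) over all arrays and by -0.99 to 0.11 when 1 array at a time was left out. The lowest came without M12, where S100a9 differed by -1.07 against -0.44 over all arrays. Camp kept its sign in every fit that left out 1 array, at 0.79 to 1.29, as did Mmp8, at -2.14 to -0.94. Most untreated arrays lie in the block M12 to M15, where Mmp8 was high, and no fit adjusted for block or sex. With replicates 1 to 3 alone 9 genes (0.0451%) and 0 members were called, and Mmp8 differed by -2.79 (limma adjusted p = 0.184), S100a8 by -1.6 (0.266) and S100a9 by -1.53 (0.2). The sex-linked Xist (6.01, limma adjusted p = 0.00143) and Eif2s3y (-4.45, 0.0157) were among the 9. Sepsis, sex and title block cannot be told apart in this setting.

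Septic TLR-deficient and untreated wildtype spleens differ in both genotype and sepsis, and this comparison shares its untreated arrays with the previous one. Ctsg was higher by 0.83 (SE 0.33) and Camp by 0.96 (SE 0.44), the 2 of 10 members at an unadjusted limma p under 0.05 against 1.88% of all genes. Both rested in part on M7, without which Ctsg differed by 0.44 and Camp by 0.45. Neither was called, with every member's adjusted p at 1.0 and 0% of all genes called. Camp's septic TLR-deficient values all lay above the untreated values, as for 2.4% of genes, so the untreated arrays set both of its separations. Of the 10 members 9 were higher (51.9% of all genes were), with a median difference of 0.59 against 0.01 over all genes, and 0.13 without M7. Mmp8 was the exception, at -1.5 (SE 0.81). M13 to M15, but no septic TLR-deficient array, lie in the block where Mmp8 was high, and the part of block and sex was not tested. Among the 14953 genes at or above percentile 25, 44.7% were higher (median -0.03). S100a8 and S100a9 differed by 0.04 and 0.08 (SE 0.72 and 0.61), far inside their errors.

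**Figure D4:**
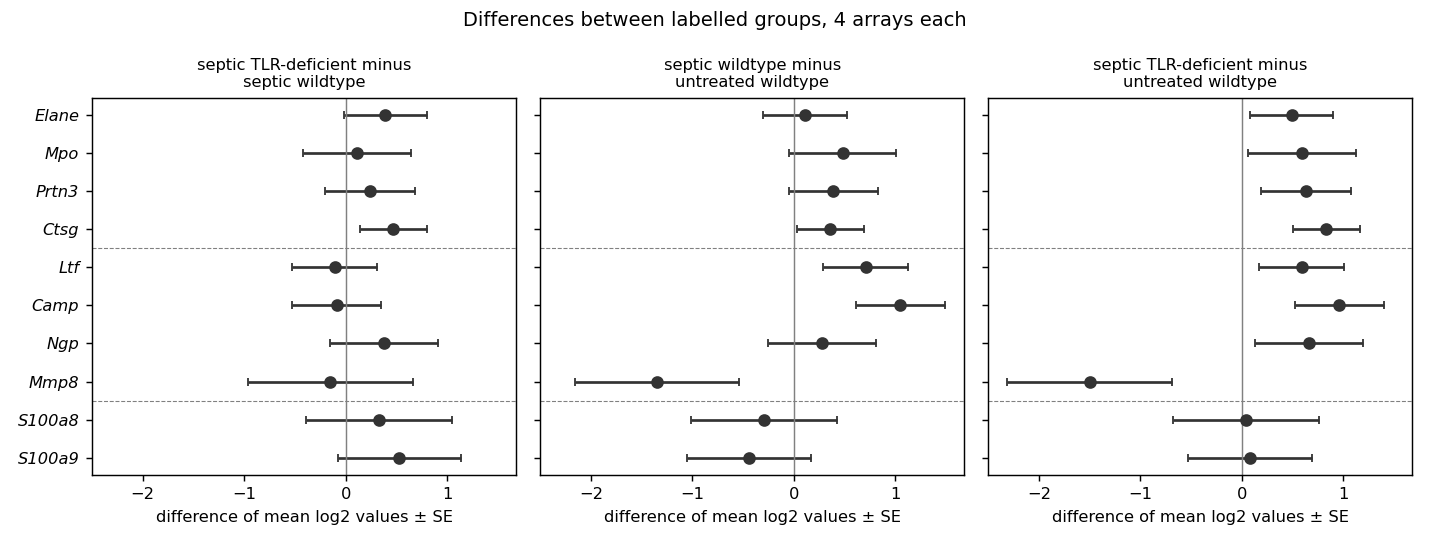
Difference of mean log2 values between labelled groups with its standard error from the limma fit (x axis) for the 10 genes (y axis), 1 panel per comparison of 4 arrays with 4. Camp lies at 1.05 and 0.96 against untreated spleens and Mmp8 at -1.35 and -1.5; no difference passed the adjusted threshold.

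Genes whose values followed each role most closely were ranked by Pearson's r over 12 arrays among 19928 other genes, as a description. Nearest to the mean of the primary granule genes were Paqr8 (0.94), Ptgr1 (0.92), Tmem40 (0.91), Uqcr11 (0.90), Ms4a3 (0.89) and H2bc18 (0.88). Ms4a3, a marker of granulocyte-monocyte progenitors, read 5.93 on M7, its highest value, and its r was 0.94 without M10. The mean of the later granule genes included Mmp8, which varied most among them (SD 1.41 over 12 arrays, against 0.69 to 0.84 for Ltf, Camp and Ngp). Nearest to that mean were H2ax (0.82), Trem3 (0.81), Slc7a6os (0.79), Olfm4 (0.78), Lamtor1 (0.78) and Sh3tc2 (0.77). Of these Olfm4 encodes a specific granule protein and Trem3 a receptor of myeloid cells. Nearest to the calgranulins were Wfdc21 (0.93), Ifitm6 (0.92), Slc7a6os (0.88), Grina (0.87), Cd177 (0.87) and Dhrs11 (0.87), among them Cd177, a neutrophil surface protein. Leaving out M10 moved these 18 rounded values by at most 0.05 but not their ranks so little: the 6 genes of the later granule set then ranked 9 to 24, and Uqcr11 and H2bc18 ranked 18 and 34, so the order of neighbours depends on that array. The 12 arrays share their blocks and their compressed member, so likeness over them is not evidence of a shared role.

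Other neutrophil genes were read beside the members, and over the 12 arrays no gene of these lists was called in any comparison. The compressed array M10 was the lowest of 12 for the mean of every neutrophil and regulator list that follows except the other S100 genes, so counts in septic against untreated wildtype spleens are also given without it, a choice made after seeing the data. Over all genes 44.9% had a lower mean in that comparison and 8.81% an unadjusted limma p under 0.05, and without M10 44.7% and 5.45%. Among the 14953 genes at or above percentile 25 only 40.8% had a higher mean there (median -0.12), so brighter genes were mostly lower. Of 20 other genes of the later granules, 17 had a lower mean in septic than in untreated wildtype spleens and 3 a higher one (median -0.30), 3 of the lower ones at an unadjusted limma p under 0.05, whereas Ltf, Camp and Ngp had higher means. Without M10 there were 15 lower and 5 higher (median -0.22), 1 of the lower ones at such a p. Lcn2, lipocalin 2, which binds bacterial siderophores, read 10.38 to 12.06 on all arrays of M5 to M7, M16 and M12 to M15, and 7.88 to 9.02 on M8 to M11. M8 to M11 were thus low for Lcn2 as for the calgranulins, but M16, the lowest array for the calgranulins, read 11.68 for Lcn2. Lcn2 differed by -1.89 between septic and untreated wildtype spleens (SE 0.77, adjusted p = 0.439) and by 1.65 between septic TLR-deficient and septic wildtype spleens (SE 0.77, adjusted p = 0.59). Lrg1, a secreted glycoprotein found in neutrophil granules, differed by -1.90 (SE 0.63) and 1.34 (SE 0.63) in the same comparisons, and Chil3, the chitinase-like protein Ym1, by -1.02 and 0.74 (SE 0.72 each). Without M10 Lrg1 differed by -1.36 and 0.80 and Chil3 by -0.43 and 0.15. With replicates 1 to 3 alone Lcn2 (3.07, limma adjusted p = 0.00675) and Lrg1 (2.46, 0.0376) were called higher in septic TLR-deficient than in septic wildtype spleens, 2 of 20 genes against 0.707% of all genes. Of 12 other genes of the promyelocyte and the primary granule, 4 were higher and 8 lower in septic wildtype spleens (5 and 7 without M10), and Elane, Mpo, Prtn3 and Ctsg were all higher. The widest ranging of them were Igfbp4, the granule membrane protein Cd63 and Cst7, a cysteine protease inhibitor, and Cd63 differed by -0.83 there and by 1.20 between septic TLR-deficient and septic wildtype spleens (SE 0.35 each, adjusted p = 0.439 and 0.59), or by -0.51 and 0.87 without M10.

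Some genes of mature neutrophils were, like Mmp8, high on M12 to M15. On M5, where Mmp8 read 7.39, Cxcr2, Retnlg and Ly6g were not high. Csf3r read 7.52 there, close to its 7.64 on M13. M12 to M15 are also the arrays that read as male, so block and sex cannot be told apart here. Of 30 such genes 22 were measured, and 18 had a lower mean in septic than in untreated wildtype spleens (median -0.73), beside 44.9% of all genes. Of the 18, 8 had an unadjusted limma p under 0.05, which 8.81% of all genes had in either direction. Without M10 these counts were 17 and 3 and the median was -0.32. Cxcr2, the chemokine receptor that draws neutrophils out of the marrow, read 8.36 to 9.5 on M12 to M15 and 5.53 to 8.10 on the other 8 arrays, and Retnlg, resistin-like gamma, read 9.57 to 10.49 against 6.33 to 8.24. Ly6g, the surface marker of mouse neutrophils, chosen after its values were seen, read 6.17 to 7.83 against 4.56 to 5.51. On M5 these genes read 6.15, 6.33 and 5.02. Like Mmp8, they had all of M12 to M15 above every other array, as did 4 of the 22 genes (with Csf3r, the receptor of the growth factor G-CSF) and 0.757% of all genes, a count made after seeing the values. Of the 20 other genes of the later granules 1 did so, Mmp9, at 7.53 to 8.55 against 5.76 to 7.05. Trem3 of the mature neutrophil list did not, reading 5.98 on M13 and 6.84 on M5, and for S100a8 M5 to M7 reached 8.34 to 9.38. Clec4e, the receptor Mincle, differed from them, with 7.20 to 8.72 on M5 to M7, 4.39 to 5.15 on M8 to M11 and 5.98 to 6.96 on M12 to M15. With replicates 1 to 3 alone, 4 of the 22 genes were called higher in septic TLR-deficient than in septic wildtype spleens, against 0.707% of all genes called. Clec4e was among them (3.21, limma adjusted p = 0.00801). That setting compares M5 to M7 with M9 to M11, so label and title block cannot be told apart in it.

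**Figure D5:**
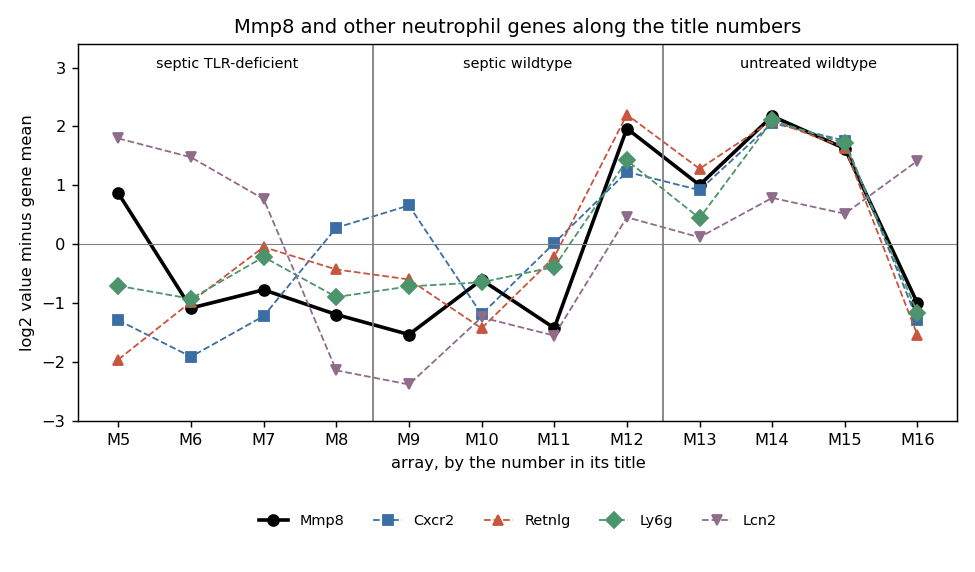
Values on the log2 scale, centred on each gene's mean (y axis), for Mmp8, Cxcr2, Retnlg, Ly6g and Lcn2 on each array (x axis, in order of title number); lines only join the points of a gene. Mmp8, Cxcr2, Retnlg and Ly6g are above their means on M12 to M15, the arrays that read as male, and below them on M16. Lcn2 is above its mean on M12 to M15 too, but also on M16 and on M5 to M7.

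Regulators and partners of the members gave no call over the 12 arrays either, and in septic against untreated wildtype spleens an unadjusted limma p under 0.05 was reached by 1 of 11 transcription factors, 2 of 14 other S100 genes, 1 of 8 receptors and partners and 1 of 6 protease inhibitors, beside 8.81% of all genes. Without M10 the counts were 1, 1, 0 and 1, beside 5.45%. Of 11 transcription factors of granulopoiesis, 9 had a lower mean in septic than in untreated wildtype spleens (median -0.25, and 7 at -0.16 without M10). Cebpb, a factor of emergency granulopoiesis, differed by -1.37 (SE 0.44) there and by 1.21 (SE 0.44) between septic TLR-deficient and septic wildtype spleens, Cebpd by -1.0 and 1.32 (SE 0.53 each), and Spi1, which encodes PU.1, by -0.63 and 0.30 (SE 0.31 each), or -0.43 and 0.10 without M10. Of 14 other S100 genes 11 were higher in septic wildtype than in untreated spleens (median 0.18, and 0.06 without M10), and the widest ranging of them, S100a6, S100a11 and S100a10, spanned only 1.78, 1.54 and 1.51 against 3.66 for S100a8. Of 8 receptors and signalling partners of calgranulins, all 8 had a lower mean in septic wildtype than in untreated spleens (median -0.36), and 6 of 8 without M10 (median -0.13), which averaged 6.44 against 7.37 to 8.21 on every other array. Cd14, a co-receptor of Toll-like receptor 4, read 9.65 to 10.49 on M5 to M7, 11.26 on M16 and 5.71 to 8.41 on the other 8 arrays, Cd69 spanned 5.25 and Ly96 2.54 log2 units. Of the 9 inhibitors of serine proteases listed 6 were measured, and 5 had a lower mean in septic than in untreated wildtype spleens (4 without M10); Serpina3n differed most, by -2.97 (SE 0.84, adjusted p = 0.439), beside Wfdc17 at -0.89 (SE 0.66) and Serpina1d at 0.72 (SE 0.43), a gene with near-identical copies whose value is uncertain and was 0.14 without M10. With replicates 1 to 3 alone Serpina3n was called, at -3.80 (limma adjusted p = 0.0199) there and 3.38 (0.00801) between septic TLR-deficient and septic wildtype spleens, where Wfdc17, Cd14 and Cebpd were called as well (2.85, 3.83 and 2.08). In this setting septic wildtype and untreated arrays also differed fully in sex and title block, and the septic labels in title block.

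Markers of other cell types also moved between arrays. All 10 erythroid genes had a higher mean in septic TLR-deficient than in untreated spleens (median 1.11), beside 9 of 10 members, with none called and 4 at an unadjusted limma p under 0.05, beside 1.88% of all genes. Over 9 genes of haematopoietic progenitors the value on M7 was 6.52, near the low end of 6.41 to 7.06, where the 6.41 was M10. All 9 had a lower mean in septic TLR-deficient than in untreated spleens (median -0.33). Lymphocyte genes followed the blocks: 9 B-cell genes averaged 8.16 to 8.45 on M5 to M7 with M16, 9.40 to 9.77 on M12 to M15 and 8.16 to 10.15 on M8 to M11, where the 8.16 was M10. The ranges on the same 3 sets of arrays were 6.85 to 7.03, 7.19 to 7.93 and 6.80 to 8.06 for 9 T-cell genes, and 5.28 to 5.56, 5.56 to 6.71 and 5.33 to 6.92 for 8 NK-cell genes. M10 gave the 6.80 and the 5.33. For 10 monocyte and macrophage genes, which include other producers of calgranulins, the ranges were 7.20 to 7.54, 7.23 to 7.64 and 6.61 to 7.83. The 6.61 was M10, whereas M8, M9 and M11 read 7.77, 7.67 and 7.83, above every other array. Eosinophil genes (7 measured) averaged 4.67 to 6.24 over all arrays, with Epx at 3.32 to 4.66, and mast cell and basophil genes (7 measured) averaged 3.57 to 4.64, with Cpa3 at 3.63 to 4.25. The remaining lists were red pulp macrophage genes at 7.71 to 9.21, megakaryocyte and platelet genes at 6.86 to 7.74, plasma cell genes at 6.85 to 7.59 and bone or marrow stroma genes at 6.02 to 7.35. The 7.71 and the 6.02 came from M10. The part of any of these cell types in the members' values was not tested.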

How the data were processed

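Total RNA of 12 mouse spleens was labelled with biotin and read on Affymetrix arrays, per the labels. The deposited table holds the authors' log2 values for each probe set, made by RMA in Affymetrix Expression Console per the submitters' processing notes, which give no version. RMA usually makes the arrays' distributions alike, but the SD over genes was 1.21 on M10 against 1.91 to 2.07 on the other arrays. Probe sets with 1 symbol numbered 21789, those with several 1621 and those without 12147. A gene's value is that of its brightest probe set with 1 symbol, with no filter on dim genes, and the 10 members had 1 probe set each.

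Comparisons used limma 3.58.1 in R 4.3.3: 1 mean per labelled group, all 12 arrays in the fit, two-sided moderated tests, Benjamini-Hochberg over 19938 genes and a threshold of 0.05. The fit was also run on simulated data, which held no title blocks, sex difference or compressed array. A difference is the first group's mean minus the second's. The number of arrays limits the precision. The titles call the replicates biological but name no animals, so p-values measure the spread between these arrays. Same-numbered arrays of different groups deviated with correlations of -0.535 to 0.144, so the numbers were not taken as pairs.

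Members and gene lists were chosen with earlier results of these data known. Named besides the members were the 3 genes with the widest range in each pathway list and the 6 nearest genes per role. Ly6g, Csf3r and Mmp9, and the values of Ms4a3 and Trem3 on single arrays, were added after values were seen. Alternatives were a further quantile normalization, median centring, leaving out genes below percentile 25, averaged probe sets, only the groups compared, other variance models, array weights, a stricter threshold of 0.01, a replicate block and fewer arrays. Gene lists and named genes without M10 or with replicates 1 to 3, and correlations centred within title blocks or labels, were added after seeing the data.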

Additional observations from a re-analysis of the deposited data

Results flagged for a closer look

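In 4 of the 30 sets of 4 arrays examined (10 genes in 3 labelled groups), 1 array stood apart from the others by Dixon's ratio of gap to range at its usual limit; chance gives about 1 in 20. Elane at 7.54 was far above the next septic TLR-deficient value of 5.74 (ratio 0.932), Prtn3 at 7.46 above 5.65 (0.904) and Camp at 7.89 above 5.97 (0.904), all on M7, septic TLR-deficient replicate 3. S100a9 at 9.39 on M12, septic wildtype replicate 4, was far above the next value of 7.02 (0.867).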

How the results depend on the processing

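Of 660 values under other settings 615 kept their direction and side of the threshold, 44 turned sign and 1 crossed the threshold. No setting planned at the outset called a member. Averaged probe sets, the percentile filter, only the groups compared, other variance models and the replicate block could not change a difference. Nor could leaving out an array of the group not compared. Only adjusted p could move there, so the 615 overstate how far the differences were put to the test. Leaving out M10 beside M8, M12 and M16, chosen after seeing the data, called 1 member, S100a9. With the replicate number as a block 0 members were called in each comparison, and the lowest limma adjusted p of a member was 0.626, 0.473 and 1.0. The medians of 0.29, 0.32 and 0.59 could not move, since each label holds every replicate number once.

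For septic TLR-deficient against septic wildtype, quantile normalization turned Mpo to -0.11 and S100a8 to -0.02; array weights turned Camp to 0.20 and Mmp8 to 0.43, replicates 1 to 3 alone to 0.00 and 0.86, and without M10 as well to 0.35 and 1.15. For septic against untreated wildtype, quantile normalization turned S100a8 to 0.10, array weights turned Elane to -0.08, Mpo to -0.11 and Ngp to -0.33, and replicates 1 to 3 turned Ngp to -0.06, or -0.20 without M10. For septic TLR-deficient against untreated, array weights turned S100a8 to -0.37 and S100a9 to -0.26, and replicates 1 to 3 turned them to -0.24 and -0.08, with or without M10. The cause was not tested. Leaving out each array in turn changed the sign of 11 differences. In the first comparison these spanned -0.08 to 0.61 (Elane), -0.37 to 0.54 (Mpo), -0.24 to 0.43 (Prtn3), -0.45 to 0.24 (Ltf), -0.60 to 0.18 (Camp), -0.04 to 0.83 (Ngp) and -0.62 to 0.64 (Mmp8). In the second they were -0.12 to 0.30 (Elane) and -0.99 to 0.11 (S100a8), and in the third -0.57 to 0.44 (S100a8) and -0.38 to 0.40 (S100a9). Camp and Mmp8 against untreated spleens kept their sign in every setting run, but no setting adjusted for title block or sex. The untreated arrays M13 to M15 lie in the block that read as male, where Mmp8 was high. Its kept sign therefore cannot tell label from block or sex. All 10 members passed the filter at percentile 25. With 4 arrays a group, of which several resembled another label's arrays, a missed threshold does not show that groups were alike.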
